A study of Mus musculus with 4 samples.

Results

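The transcripts described here are those of 34 genes for the synthesis, uptake, storage and efflux of cholesterol, chosen by symbol from the 35869 rows of an RNA sequencing table of mouse oligodendrocytes. All 34 had a row. Flow cytometry collected cells carrying both O4 and GalC from the cortex at postnatal day 5. A Zfp488 knock-in allele was homozygous in the mice behind 2 libraries, which the series writes as Zfp488KI/KI and the sample labels as Zfp488 KO (KO below). The other 2 libraries came from wild-type mice (WT below). The sources used here do not give the design of the allele, the strain or the number of animals in a library. The p-values therefore reflect no more than the spread between libraries, which may be technical. O4 and GalC mark lipids of the oligodendrocyte lineage, and the sorted cells may span several stages. Values are FPKM, fragments scaled to transcript length and to the mapped fragments of the library, which put genes of different length on 1 scale.

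Myelin is among the membranes richest in cholesterol, and cholesterol does not cross from the blood into the brain, so oligodendrocytes make most of what they need. Synthesis runs from acetyl-CoA through mevalonate to farnesyl diphosphate, then to squalene and lanosterol, and through a series of demethylations and reductions to cholesterol. The transcription factor SREBP-2, held in the endoplasmic reticulum by INSIG proteins and released for cleavage when sterol is low, switches the enzyme genes on together, while LXR factors sense oxysterols and drive the export genes. Surplus sterol is exported by ABC transporters to apolipoproteins or stored as ester.

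Defining genes of the oligodendrocyte lineage were abundant in every library. Olig1 was at 1456 and 1487 FPKM in KO and at 1249 and 1392 FPKM in WT. The 5 lineage genes summed to 2446 and 2312 FPKM in KO and to 2156 and 2202 FPKM in WT. Of 15 myelin genes, 13 were tested and 7 had lower values in both KO libraries than in either WT library, against 18.3% of all rows tested, with a median log2 fold change of -0.94. Opalin, among these 7, was at 0 FPKM in both KO libraries and at 1.87 and 3.69 FPKM in WT. It met the filter of 1 FPKM or more in 2 libraries only through WT, so its direction was fixed in advance. In such bulk libraries, fewer cells of a type and less RNA per cell cannot be told apart. The libraries' FPKM summed to 311846 and 320581 in KO and to 336530 and 341145 in WT. The sources used here give no total reads, but low values stepped by whole reads, and 1 FPKM on a transcript of 1 kb stood for about 39.6 and 39.7 reads in KO and 37.5 and 43.8 reads in WT. Zfp488 was listed at 4.82 and 4.11 FPKM in KO and at 6.61 and 5.29 FPKM in WT (log2 fold change -0.34, limma adjusted p = 0.95), which checks the labels only weakly.

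The RefSeq promoters (GRCm38.p6, 250 bases before to 50 bases after the start site) show what sequence the enzyme genes share. A promoter was found for 29 of the 34 genes, all but Fdps, Fdft1, Sqle, Stard4 and Abcg1, and thus for 16 of the 19 synthesis enzymes. The CCAAT box, the site of the factor NF-Y, was searched as CCAAT or ATTGG. It was present for 15 of the 16 enzymes, and 41.1% of 27025 genes with a promoter had it. The GC box of Sp1 (GGGCGG or CCGCCC) was present for 14 of 16 enzymes, against 38.2% of genes. These shares are over all genes with a promoter, expressed or not. The share among the rows tested was not computed, so the counts do not set the enzymes apart from other expressed genes. The sterol regulatory element of the SREBP factors, searched as TCACNCCAC or GTGGNGTGA, was found for 1 member, Hmgcs1, and for 1.44% of all genes. Its shorter form CACNCCAC or GTGGNGTG, which the longer one contains, was found for Acat2, Hmgcs1 and Insig1 and for 7.12% of genes. The LXR site, searched as AGGTCA repeated after 4 free bases and as its reverse complement, was found in no member and in 0.0148% of genes. A match describes letters in these windows and is no evidence of binding.

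The Hmgcs1 element and the box nearest the start site in each enzyme gene whose genotypes did not overlap are printed below, with the match in capitals and each sequence written 5′ to 3′ on the strand of its gene. The sequences are given as a record of the matches. Idi1, Mvd, Msmo1 and Dhcr7 had higher values in both KO libraries, and Mvk and Sc5d had lower ones. Among all rows, 16.6% were higher and 18.3% lower in this way, and none of these genes passed the limma test. Because the box was present for 15 of the 16 enzymes with a promoter, its presence in genes of both directions says nothing about direction. Acat2, the remaining enzyme gene without overlap, held no CCAAT box.
Hmgcs1, sterol element, chr13:119690198-119690238, plus strand: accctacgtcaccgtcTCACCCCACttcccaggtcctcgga
Idi1, chr13:8885576-8885612, plus strand: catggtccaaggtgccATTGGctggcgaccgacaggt
Mvd, chr8:122443429-122443465, minus strand: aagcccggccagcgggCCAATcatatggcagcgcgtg
Msmo1, chr8:64733613-64733649, minus strand: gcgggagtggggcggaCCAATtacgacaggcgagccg
Dhcr7, chr7:143830149-143830185, plus strand: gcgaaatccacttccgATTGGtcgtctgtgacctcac
Mvk, chr5:114444239-114444275, plus strand: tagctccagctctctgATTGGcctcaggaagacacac
Sc5d, chr9:42264304-42264340, minus strand: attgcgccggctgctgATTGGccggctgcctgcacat

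Cholesterol synthesis was a strongly expressed program in both genotypes, and no gene of it passed the test between them. Transcripts of the 34 genes summed to 1438 and 1552 FPKM in KO and to 1334 and 1540 FPKM in WT, so the genotypes overlapped. As a share of all FPKM of a library, which removes differences in the library sums, the 34 genes made up 0.461% and 0.484% in KO and 0.396% and 0.452% in WT. These shares did not overlap, but WT 2 lay closer to KO 1 than to WT 1. The 19 enzymes made up 0.390% of all FPKM in each KO library and 0.337% and 0.364% in the WT libraries. Because the KO library sums were the smaller ones, such scaling raises KO against WT for genes at large. With libraries rescaled in this way, the median log2 fold change of all rows tested was 0.095. Both KO libraries were then higher for 21.7% of rows and lower for 13.1%. Acat2, Msmo1, Sqle, Apoe and Fdps, the 5 most abundant, held 64.3% of the sum over the 34 genes. A mean of at least 20 FPKM over the 4 libraries was reached by 16 genes, 14 of them enzymes, and 17 of the 19 enzymes stood above the median of the rows tested. Abca1 and Nr1h3 of the export branch stood at the other end, below 1 FPKM in every library.

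**Figure D1:**
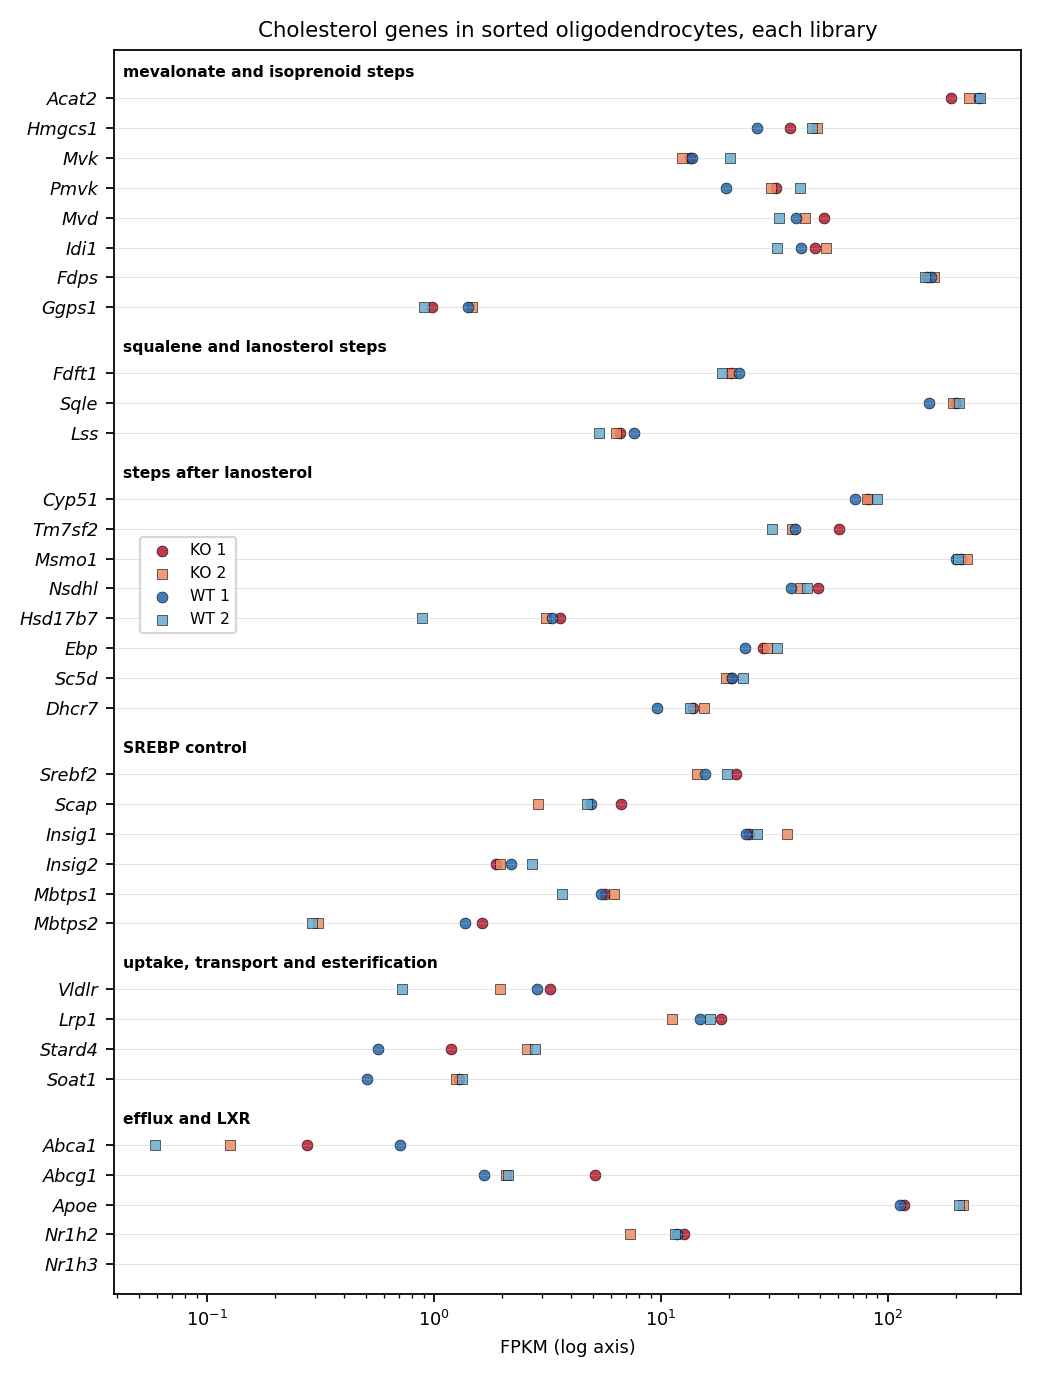
FPKM on a log axis (horizontal) of the 34 genes grouped by role (vertical), with 1 point for each of the 2 KO and 2 WT libraries. Acat2, Msmo1, Sqle, Apoe and Fdps have the highest means, the libraries of the genotypes interleave for most genes, and Nr1h3, listed at 0, has no point.

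The comparison of KO with WT asks which transcripts differ in sorted oligodendrocytes of mice labelled as lacking Zfp488. Testing required 2 or more libraries at 1 FPKM or above, which 32 of the 34 genes and 10754 rows in all met. By limma on log2(FPKM + 1), 0 of the 32 genes and 0 of the 10754 rows (0%) had an adjusted p under 0.05, and an unadjusted p under 0.05 was reached by 0 of the 32 and by 608 rows (5.65%). The KO and WT libraries did not overlap for 9 of the 32 genes, against 34.9% of all rows. KO was the higher genotype for 5 of these, against 16.6% of all rows, and the lower one for 4, against 18.3% of all rows. With the libraries rescaled to TPM these counts were 11 and 2, where the shares of all rows were 21.7% and 13.1%.

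The median log2 fold change of the 32 genes was 0.09, beside 8.1e-05 for all rows, with 25 genes positive and 7 negative. Of all rows, 5378 were positive and 5376 negative. Without WT replicate 1 the median of the 32 genes was -0.0037. The gap between the KO libraries and that between the WT libraries were taken for each gene. The larger of them exceeded the difference between the genotypes for 27 of the 32 genes (84.4%) and for 76.8% of all rows. For 14 genes, 11 of them enzymes, the 95% interval of the log2 fold change lay within 1 of 0 on either side, so that a doubling or a halving on the scale of FPKM + 1 was outside it. For the others the interval reached further, up to 1.91 for Hsd17b7.

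**Figure D2:**
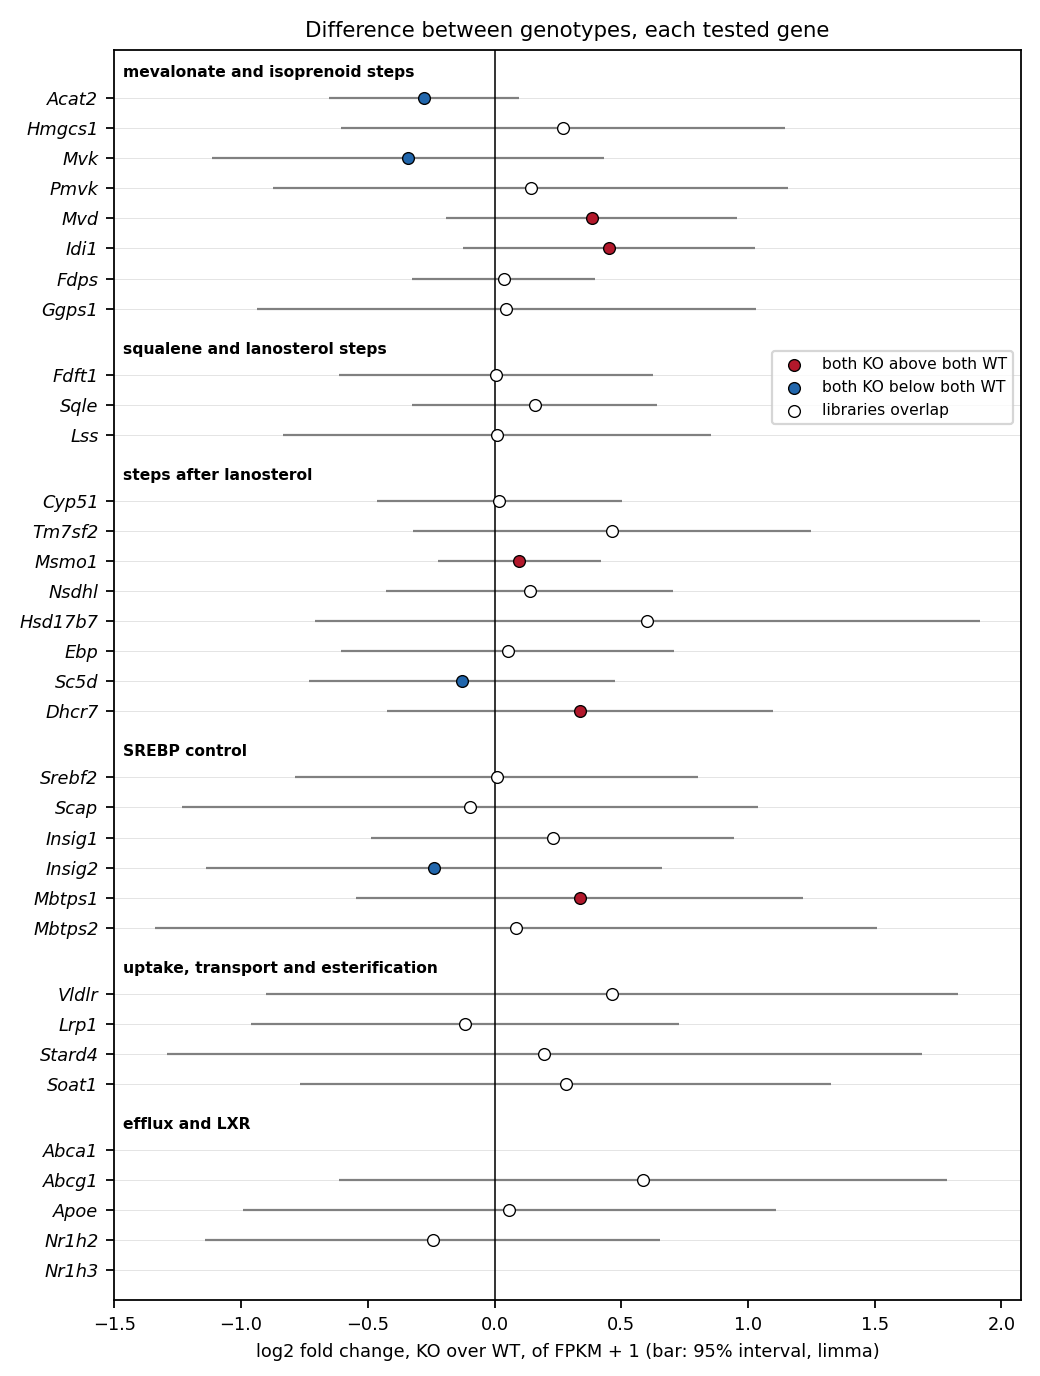
Log2 fold change of KO over WT on the scale of FPKM + 1 (horizontal) for the 32 tested genes (vertical, by role), with 95% intervals from limma as bars and colours for genes whose libraries did not overlap. Every interval spans 0, and those of Msmo1 and Fdps are the narrowest.

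Among the 8 enzymes from acetyl-CoA to the isoprenoid diphosphates, both KO libraries were higher for 2 and lower for 2, against 16.6% and 18.3% of all rows. Idi1, which isomerises isopentenyl diphosphate, was at 47.5 and 53.3 FPKM in KO and at 41.2 and 32.3 FPKM in WT. Both KO values were the higher ones (log2 fold change 0.45, SE 0.22, limma adjusted p = 0.914). Of the stretches of 50 bases in its longest transcript, 30.5% also occurred in transcripts of 5 other genes, so part of its reads may be shared. Mvd, the decarboxylase that makes isopentenyl diphosphate, was at 52.2 and 43.2 FPKM in KO and at 39.6 and 33.1 FPKM in WT. The KO libraries again lay above, with the lower KO value close to the higher WT value (log2 fold change 0.38, SE 0.22, limma adjusted p = 0.915).

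Mvk, which phosphorylates mevalonate, was at 13.4 and 12.4 FPKM in KO and at 13.7 and 20.1 FPKM in WT. WT 2 stood apart and the remaining libraries lay close together (log2 fold change -0.34, SE 0.30, limma adjusted p = 0.949). Acat2, the cytosolic thiolase that makes acetoacetyl-CoA in the first step, was at 189.7 and 228.9 FPKM in KO and at 252.0 and 253.7 FPKM in WT. Both KO libraries were lower, and the WT libraries nearly coincided (log2 fold change -0.28, SE 0.15, limma adjusted p = 0.914). For the longest Acat2 transcript, 45.9% of such stretches occurred in a transcript of another gene, chiefly the near copy Acat3, so its reads may have been divided between the copies. Acat3 was at 65.6 and 71.0 FPKM in KO and at 75.0 and 74.5 FPKM in WT.

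The other 4 enzymes of this stretch overlapped between genotypes. Fdps, which makes farnesyl diphosphate, was at 148.7 and 159.6 FPKM in KO and at 155.2 and 145.2 FPKM in WT. Its interval was among the narrowest, -0.32 to 0.40 around a log2 fold change of 0.04. The Fdps exons overlap those of Gm43738 on the same strand over 26.7% of their length. Of the stretches of 50 bases in its longest transcript, 11.7% occurred in transcripts of other genes, so part of its reads may be shared. Hmgcs1, the synthase of HMG-CoA, was at 37.0 and 48.9 FPKM in KO and at 26.5 and 46.4 FPKM in WT, with the number 1 library the lower in each genotype. Pmvk, the second kinase of mevalonate, was at 32.1 and 30.5 FPKM in KO, between the WT values of 19.3 and 41.2 FPKM. Ggps1, which makes the geranylgeranyl group used to anchor proteins in membranes, was the least abundant enzyme, at 0.983 and 1.47 FPKM in KO and at 1.41 and 0.902 FPKM in WT.

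The enzymes that commit farnesyl diphosphate to sterol all overlapped between genotypes. Sqle, the epoxidase of squalene, was at 199.8 and 194.7 FPKM in KO and at 151.5 and 206.0 FPKM in WT. WT 1 was the low library and the other 3 lay together (log2 fold change 0.16, SE 0.19, limma adjusted p = 0.972). Fdft1, squalene synthase, averaged 20.4 ± 0.09 FPKM in KO and 20.4 ± 2.47 FPKM in WT (SD, n = 2 each). Of its exon bases, 18.3% overlap the opposite strand of the lysosomal protease gene Ctsb, and the sources used here do not give the strand setting. Ctsb stood at 160.3 and 144.5 FPKM in KO and at 175.5 and 150.04 FPKM in WT. For the longest Fdft1 transcript, 30.7% of the stretches of 50 bases occurred in transcripts of Ctsb or Gm6781. Lss, which closes the sterol rings to lanosterol, averaged 6.45 ± 0.20 FPKM in KO and 6.49 ± 1.61 FPKM in WT (SD, n = 2 each). Summed over the 3 enzymes, levels were 226.8 and 221.4 FPKM in KO and 181.3 and 229.9 FPKM in WT.

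Of the 8 enzymes after lanosterol, 2 were higher and 1 was lower in both KO libraries, against 16.6% and 18.3% of all rows. Msmo1, the oxidase that removes methyl groups from the sterol, was at 210.2 and 222.4 FPKM in KO and at 199.0 and 204.8 FPKM in WT. The libraries did not overlap, but the log2 fold change was 0.10 with an interval of -0.22 to 0.42 (SE 0.12, limma adjusted p = 0.977). Dhcr7, the reductase that makes cholesterol in the last step of one branch, was at 13.8 and 15.5 FPKM in KO and at 9.59 and 13.4 FPKM in WT, where WT 2 almost reached the KO values (log2 fold change 0.34, SE 0.30, limma adjusted p = 0.949). Sc5d, the desaturase ahead of it, was at 20.3 and 19.4 FPKM in KO and at 20.6 and 23.0 FPKM in WT (log2 fold change -0.13, SE 0.23, limma adjusted p = 0.988).

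Hsd17b7, a ketoreductase of the demethylation steps, was at 3.58 and 3.10 FPKM in KO and at 3.32 and 0.886 FPKM in WT. A single low library, WT 2, set the difference, and WT 1 lay between the KO values (log2 fold change 0.60, SE 0.51, limma adjusted p = 0.945). Without WT replicate 2 the log2 fold change was 0.0038. Tm7sf2, a sterol reductase, was at 61.0 and 37.9 FPKM in KO and at 38.9 and 30.7 FPKM in WT, with KO 1 the high library (log2 fold change 0.46, SE 0.31, limma adjusted p = 0.928). Its exons overlap those of Vps51 on the same strand over 12.1% of their length. Cyp51, which takes the first methyl group off lanosterol, averaged 81.3 ± 0.34 FPKM in KO and 80.8 ± 12.6 FPKM in WT (SD, n = 2 each). Nsdhl, a dehydrogenase of the demethylation complex, lay between 37.5 and 49.4 FPKM in the 4 libraries, and Ebp, a sterol isomerase, between 23.6 and 32.6 FPKM.

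**Figure D3:**
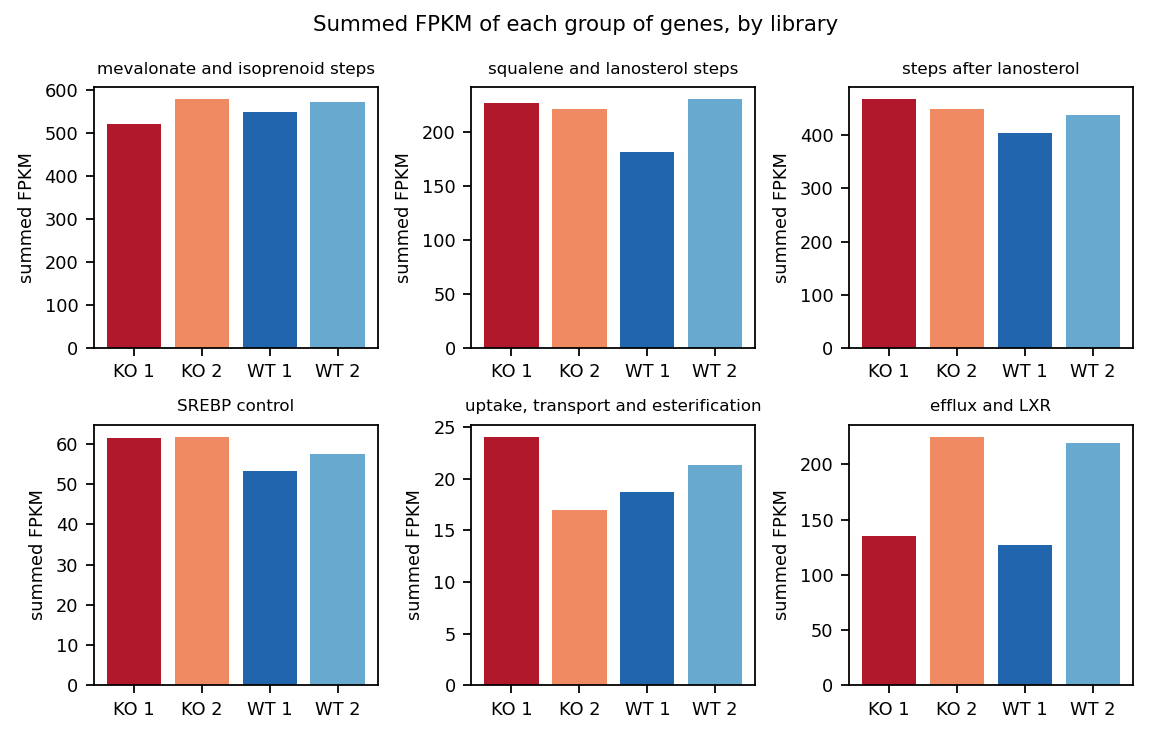
Summed FPKM (vertical, from 0) of the genes of each role in each library (horizontal, KO 1, KO 2, WT 1 and WT 2), 1 bar a library with no error bar. The squalene and lanosterol sum is 181.3 FPKM in WT 1 and 221.4 to 229.9 FPKM in the others. The sum of the steps after lanosterol runs from 404.4 FPKM in WT 1 to 468 FPKM in KO 1. That of the mevalonate and isoprenoid steps runs from 521.7 FPKM in KO 1 to 578.2 FPKM in KO 2. The efflux and LXR sum, 135.5 and 224.8 FPKM in KO and 127.3 and 219.6 FPKM in WT, differs between library numbers within each genotype.

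The genes that control SREBP were expressed at moderate to low levels, with no difference that passed. Srebf2, which encodes SREBP-2, was at 21.3 and 14.4 FPKM in KO and at 15.6 and 19.5 FPKM in WT (log2 fold change 0.01, 95% interval -0.79 to 0.80). Insig1, an ER retention protein that is itself a target of SREBP, was the most abundant of the 6, at 24.3 and 36.0 FPKM in KO and at 23.8 and 26.5 FPKM in WT. KO 2 was the high library and the others lay close together (log2 fold change 0.23, SE 0.28, limma adjusted p = 0.975). Insig2, the related retention protein, was far less abundant, at 1.88 and 1.95 FPKM in KO and at 2.19 and 2.71 FPKM in WT, both KO values being lower (log2 fold change -0.24, SE 0.35, limma adjusted p = 0.984).

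Mbtps1, the first protease that cuts SREBP in the Golgi, was at 5.69 and 6.19 FPKM in KO and at 5.44 and 3.68 FPKM in WT. Both KO libraries were higher, KO 1 only just (log2 fold change 0.34, SE 0.34, limma adjusted p = 0.954). Mbtps2, the protease of the second cut, was at 1.62 and 0.308 FPKM in KO and at 1.36 and 0.290 FPKM in WT, low in library 2 of each genotype. Its annotated exons overlap those of Yy2 on the same strand over 28.4% of their length. Scap, the sterol sensor that escorts SREBP, was at 6.65 and 2.88 FPKM in KO and at 4.94 and 4.72 FPKM in WT, the KO libraries lying on either side of the WT libraries.

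Receptors and handling proteins for incoming sterol overlapped between genotypes for all 4 genes. Lrp1, a large endocytic receptor for apolipoprotein E particles, was the most abundant at 18.3 and 11.2 FPKM in KO and at 14.8 and 16.5 FPKM in WT (log2 fold change -0.12, SE 0.33, limma adjusted p = 0.994). Vldlr, a lipoprotein and reelin receptor, was at 3.25 and 1.96 FPKM in KO and at 2.85 and 0.720 FPKM in WT, lower in the number 2 library of each genotype (log2 fold change 0.46, SE 0.53, limma adjusted p = 0.969). Stard4, a cytosolic sterol carrier, went the other way by library number, at 1.19 and 2.57 FPKM in KO and at 0.567 and 2.80 FPKM in WT. Soat1, which esterifies cholesterol for storage, was at 1.29 and 1.25 FPKM in KO and at 0.504 and 1.32 FPKM in WT, with WT 1 the low library.

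Export genes were low apart from Apoe. Abcg1, a transporter that hands sterol to lipoprotein particles, was at 5.11 and 2.07 FPKM in KO and at 1.66 and 2.13 FPKM in WT. The higher mean of KO came from KO 1 alone (log2 fold change 0.59, SE 0.47, limma adjusted p = 0.937), and without KO replicate 1 the log2 fold change was 0.09. Abca1, the transporter that loads apolipoproteins, did not reach the filter at 0.276 and 0.126 FPKM in KO and at 0.706 and 0.059 FPKM in WT. Nr1h2, which encodes LXR beta, was at 12.6 and 7.34 FPKM in KO and at 11.7 and 11.5 FPKM in WT (log2 fold change -0.24, SE 0.35, limma adjusted p = 0.984). Nr1h3, which encodes LXR alpha, was listed at 0 throughout. A listed 0 may be a failed estimate rather than an absent transcript, which was not tested. The same caution holds for the 0 listed for Opalin in KO and for Lcat, taken up below, in WT.

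Apoe, the main apolipoprotein of the brain, which astrocytes and microglia make in large amounts, was at 117.5 and 215.2 FPKM in KO and at 113.2 and 205.9 FPKM in WT. The KO mean of 166.4 ± 69.1 FPKM and the WT mean of 159.5 ± 65.5 FPKM (SD, n = 2 each) nearly coincided, and the library numbered 2 was the high one in each genotype (log2 fold change 0.06, SE 0.41, limma adjusted p = 0.995). Summed markers of other cell types were likewise higher in library 2 of each genotype, though not every gene was. The 10 microglia genes summed to 57.6 and 168.6 FPKM in KO and to 66.4 and 151.1 FPKM in WT, and the genotypes overlapped for all 8 that were tested. C1qb, a complement subunit of microglia, was at 9.85 and 53.6 FPKM in KO and at 9.97 and 43.4 FPKM in WT, and 8 of the 10 genes were higher in library 2 of both genotypes. C1qa, its partner subunit, was not, at 10.4 and 9.46 FPKM in KO and at 8.32 and 17.3 FPKM in WT, nor was Tmem119 in KO, at 2.24 and 0.024 FPKM. Itgam, counted among the 8, stayed at or below 0.035 FPKM in all 4 libraries.

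The 10 astrocyte genes summed to 120.7 and 264.5 FPKM in KO and to 94.0 and 176.2 FPKM in WT, with 6 genes tested, of which Slc1a3 alone gave 92.4 and 187.0 FPKM in KO and 71.9 and 102.1 FPKM in WT. Gjb6 stood at or below 0.014 FPKM. The 8 endothelial genes, 2 of them tested, summed to 0.065 and 32.0 FPKM in KO and to 2.81 and 34.8 FPKM in WT, and the 7 pericyte and fibroblast genes, 5 of them tested, to 10.9 and 49.2 FPKM in KO and to 0.449 and 56.2 FPKM in WT. The 10 neuron genes, 5 of them tested, summed to 33.6 and 62.3 FPKM in KO and to 26.4 and 48.6 FPKM in WT. Library 2 was the higher one in both genotypes for 9 of 10 astrocyte, 6 of 10 neuron, 5 of 8 endothelial and 6 of 7 pericyte and fibroblast genes. Among 49 other sterol and isoprenoid genes, taken up below, it was so for 18. For these counts and that of the microglia genes, the share over all rows was not computed. The counts include untested genes near 0, such as Gjb6 and Slc17a7. The part of these markers in the Apoe values was not tested. The 15 myelin genes ran opposite to these markers, at 728.5 and 362.4 FPKM in KO and at 1087 and 664.8 FPKM in WT, the higher value being that of library 1 in each genotype.

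**Figure D4:**
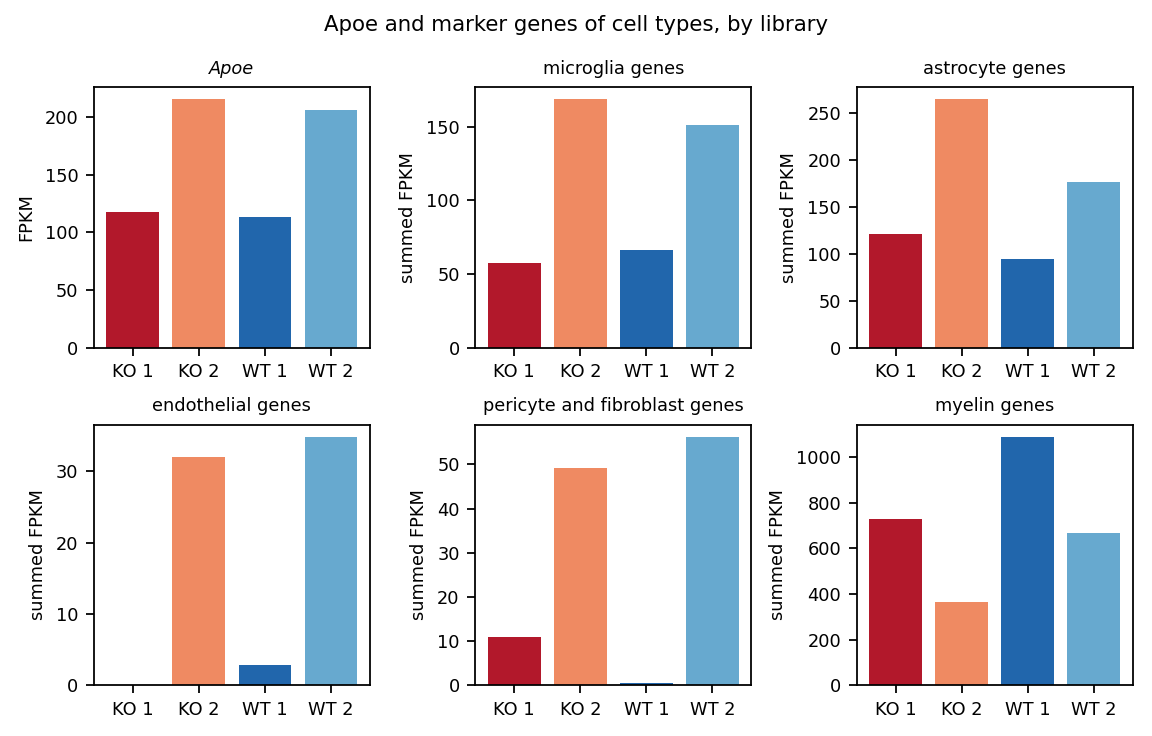
FPKM of Apoe and summed FPKM of 5 lists of cell type genes (vertical, each panel from 0 on its own scale) in KO 1, KO 2, WT 1 and WT 2 (horizontal), 1 bar a library with no error bar. Apoe and the microglia, astrocyte, endothelial, and pericyte and fibroblast sums are higher in library 2 of each genotype, and the myelin sum is higher in library 1.

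The values of the enzymes and of the myelin genes are given side by side, and the difference between the lists was not tested. The median log2 fold change was 0.10 over the 19 enzymes, of which 16 were positive, and -0.94 over the 13 tested myelin genes, of which 13 were negative. Of all rows, 5378 were positive and 5376 negative. Among the 16 enzymes, Fdft1, Lss and Cyp51 had values of only 0.0061, 0.0097 and 0.018. Each of these changed sign when a library was left out. Opalin, among the 13, met the filter only through WT. Precursor genes had a median of 0.35 over 10 genes, 5 of them higher in both KO libraries (16.6% of all rows). None of these genes passed the limma test on its own. The enzyme transcripts summed to 1217 and 1249 FPKM in KO and to 1135 and 1242 FPKM in WT, so that WT 1, the library with the highest myelin sum, had the lowest enzyme sum. Without Acat2 the enzyme sums were 1027 and 1020 FPKM in KO and 882.6 and 988.4 FPKM in WT.

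Other genes of sterol and isoprenoid handling, from a list of 50 symbols of which 49 had a row and 37 were tested, gave the same count of 0 past the limma threshold. An unadjusted p under 0.05 was reached by 4 of the 37, against 5.65% of all rows. Of these 4, 2, Lcat and Mylip, met the filter only through the genotype where they were higher. Both KO libraries were higher for 6 of the 37 and lower for 7, against 16.6% and 18.3% of all rows, and the median log2 fold change was 0.04. These counts include Lcat, Mylip and Cyp27a1, each below 1 FPKM in both libraries of a genotype. They met the filter only through the other genotype, so their direction was fixed in advance. Srebf1, which encodes the SREBP-1 factors of fatty acid synthesis, was at 4.65 and 2.86 FPKM in KO and at 1.09 and 1.43 FPKM in WT (log2 fold change 1.05, SE 0.39, limma adjusted p = 0.87), while the values of Srebf2 overlapped. Mylip, a ubiquitin ligase induced by LXR that sends lipoprotein receptors for breakdown, was at 0.823 and 0.034 FPKM in KO and at 2.42 and 2.50 FPKM in WT.

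Osbp, an oxysterol-binding exchanger of sterol between ER and Golgi, was at 5.05 and 8.09 FPKM in KO and at 0.815 and 2.83 FPKM in WT (log2 fold change 1.49, SE 0.51, limma adjusted p = 0.859). Cyp27a1, a mitochondrial sterol hydroxylase, was at 0.628 and 0.382 FPKM in KO and at 1.504 and 2.86 FPKM in WT. Abcg4, a relative of Abcg1, was at 5.17 and 6.63 FPKM in KO and at 1.17 and 4.77 FPKM in WT. Both KO values were the higher ones for Osbp and Abcg4 and the lower ones for Cyp27a1, whose direction the filter had fixed. Nceh1, which hydrolyses cholesterol esters, was at 3.96 and 7.83 FPKM in KO and at 2.88 and 3.01 FPKM in WT. Rnf145, an ER ubiquitin ligase of sterol control, was at 8.36 and 11.1 FPKM in KO and at 5.32 and 5.71 FPKM in WT. Lcat, which esterifies cholesterol on secreted particles, was at 1.77 and 6.78 FPKM in KO and listed at 0 in both WT libraries.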

How the data were processed

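RNA of 4 libraries (2 KO, 2 WT) was extracted with a Qiagen micro column kit and prepared with an Illumina kit, per the labels' protocols. The submitters' processing notes name TopHat and the mm10 build. The deposited values are FPKM, per the file headers; the sources used here name no estimating program, annotation, strand setting or filter. Counts were not rebuilt. Values were analysed as log2(FPKM + 1), which understates changes of low genes. The 10754 rows at 1 FPKM or more in 2 or more libraries entered limma 3.58.1 (R 4.3.3; KO over WT, empirical Bayes with trend, Benjamini-Hochberg adjustment over all rows, threshold 0.05, two-sided); the fit was tested on simulated data. SE denotes the error of a log2 fold change. The genes and lists were chosen with earlier results of these data known. All members are named; values in every library are given for members whose genotypes did not overlap, for the most abundant and the largest log2 fold change of each role and for those below 1 FPKM in both libraries of a genotype, and for most others. Of the other pathway genes, the 8 without overlap that had the largest absolute log2 fold changes are named. Overlaps and lengths are from GENCODE M21 (GRCm38), promoters from RefSeq GRCm38.p6. The 14 alternatives changed pseudocount, filter, scaling, variance model, block, level and length trend, or left out a library.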

Additional observations from a re-analysis of the deposited data

How the results depend on the processing

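No gene and no member passed the limma threshold under any of the 14 alternatives (smallest adjusted p of a member 0.552, with the replicate block). Rescaling to TPM gave 11 members higher and 2 lower in both KO libraries and a median of 0.19, where the median of all rows was 0.095. Removal of the level and length trend gave a median of 0.17 (all rows -0.009). With a library left out, 10 to 16 members were higher and 4 to 10 lower without overlap (30.5% to 35.5% and 32.7% to 36.6% of all rows), by construction because fewer libraries must separate, and the median lay between -0.0037 and 0.14. Of 314 member values under alternatives with all libraries, 10 had the other sign. After quantile normalization these were Lss -0.0044, Ggps1 -0.060, Fdft1 -0.016, Srebf2 -0.023 and Mbtps2 -0.10, and after trend removal Lss -0.041, Ggps1 -0.12, Fdft1 -0.060, Srebf2 -0.072 and Mbtps2 -0.072; the cause was not tested.

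With a library left out, 26 of 128 member values changed sign. The ranges were -0.38 to 0.49 for Apoe, -0.14 to 0.18 for Cyp51, -0.17 to 0.28 for Ebp, -0.11 to 0.12 for Fdft1, -0.014 to 0.088 for Fdps, -0.12 to 0.22 for Ggps1, -0.12 to 0.66 for Hmgcs1, -0.044 to 0.50 for Insig1, -0.45 to 0.22 for Lrp1 and -0.21 to 0.23 for Lss. They were -0.42 to 0.59 for Mbtps2, -0.60 to 0.11 for Nr1h2, -0.39 to 0.67 for Pmvk, -0.59 to 0.39 for Scap, -0.032 to 0.59 for Soat1, -0.062 to 0.38 for Sqle, -0.26 to 0.28 for Srebf2, -0.44 to 0.84 for Stard4 and -0.12 to 1.05 for Vldlr. For 13 members the sign held under every alternative that tested them. Hsd17b7, among the 13, was not tested where all 4 libraries had to reach 1 FPKM.

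The labels do not say whether same-numbered libraries share a preparation, so the numbers were not used as pairs. Over the 10754 rows, the difference of library 2 from library 1 in KO and in WT correlated at 0.29 (Pearson, across genes, which are not independent). With the number as a replicate block, 0 rows passed and 1025 had an unadjusted p under 0.05, none of them a member; the median of the members was 0.09 as without it. With 2 libraries a genotype, the 95% interval reached past 1 on the log2 scale for 18 of the 32 members.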
